A study of Saccharomyces cerevisiae with 17 samples.

Results

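The spliceosomal RNA helicases and their U5 partners were described as 10 genes of budding yeast, Saccharomyces cerevisiae, out of 5326 genes with a value. They were chosen by name for their known role, with a rule that uses no measured value: SUB2, PRP5, PRP28, BRR2, PRP8, SNU114, PRP2, PRP16, PRP22 and PRP43. RNA was sequenced from haploid MATa cells of the BY4741 laboratory strain, in mid-log growth in rich glucose medium (YPD) at 30 °C. Compared were 4 genotypes (wild type, strains deleted for set2 or for eaf3, and the histone H3 mutant H3K36A), and the genotype field of every sample, mutants included, lists only MATa and the his3-, leu2-, met15- and ura3- alleles of the background. Set2 is the methyltransferase of the H3 lysine that H3K36A replaces with alanine, and Eaf3 recognises that methylated lysine through its chromodomain. The labels do not say which copies of the H3 genes carry H3K36A, nor whether a mutant is 1 clone. Each genotype had 2 biological replicate libraries, 8 in all, but the deposited values are the authors' means per genotype. No spread between replicates exists here, so no difference was tested, no neighbours in an order of levels can be told apart, and the reads behind a value are unknown. The 9 libraries of immunoprecipitated and input DNA were not analysed here. SET2, EAF3, HHT1 and HHT2 have no row in the table as used here, so the genotypes were not checked on the altered genes.

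A spliceosome is built anew on each intron, and its steps are driven by ATPases of the DEAD-box, DEAH-box and Ski2-like helicase families. Sub2 and Prp5 act while the branch site is recognised. Prp28 and Brr2 then exchange and unwind small nuclear RNAs to activate the complex, under the control of the scaffold protein Prp8 and the GTPase Snu114. Prp2 and Prp16 drive the remodelling steps around the first and second splicing reactions, Prp22 releases the mRNA, and Prp43 takes the remaining complex apart. The series concerns H3K36 methylation, Eaf3 and spliceosome assembly on nascent transcripts. The RNA levels of these genes bear on whether the genes of this machinery were expressed at the same level in the mutants. They are relative means without replicate values and give no protein level, so they cannot settle it.

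In wild type the 10 genes spanned a 48.6-fold range of RPKM (reads scaled by gene length and library size, so that levels can be compared between genes). SUB2 was at 362 RPKM and held 57.8% of the sum of the 10 values. PRP43 followed at 136 RPKM and PRP8 at 37.5 RPKM. These 3 lay above the median of all genes, 23.0 RPKM, and the other 7 lay below it. SNU114 was at 21.0, BRR2 at 19.6, PRP28 at 13.8, PRP16 at 11.2, PRP22 at 9.19, PRP5 at 9.03 and PRP2 at 7.45 RPKM. SUB2 exceeded 93.5% of all genes in wild type, PRP43 86.9% and PRP2 14.2%. The order from SUB2 to PRP28 was the same in all 4 genotypes. Below PRP28 the order differed: PRP2, the lowest in wild type, stood above PRP16, PRP5 and PRP22 in the set2 deletion and in H3K36A, and PRP22 was the lowest in all 3 mutants.

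**Figure D1:**
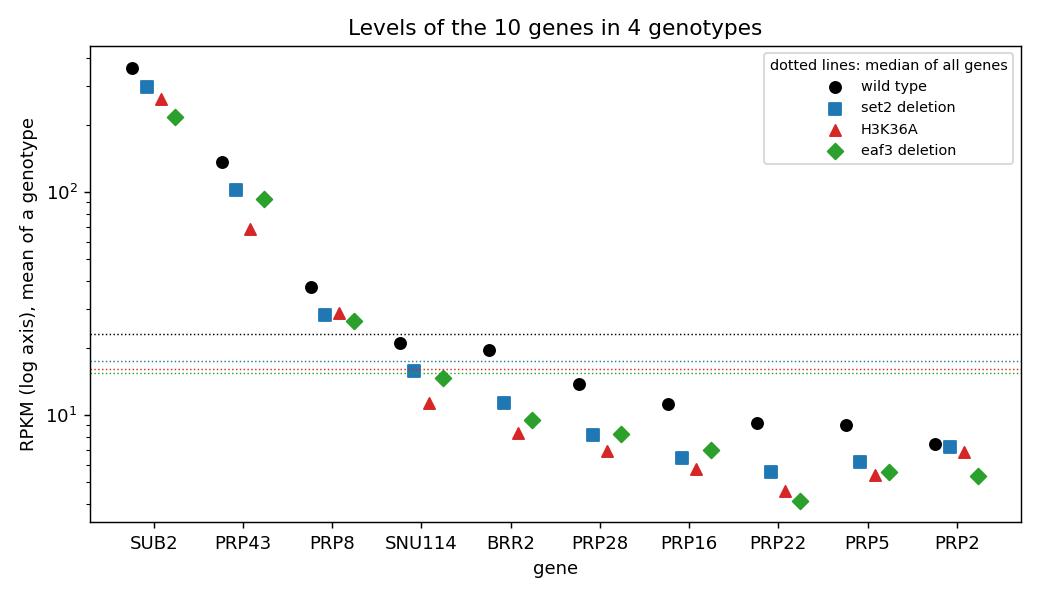
RPKM (log axis) of the 10 genes in wild type and the set2, H3K36A and eaf3 mutants; each point is the authors' mean of a genotype and dotted lines are the medians of all genes. SUB2, PRP43 and PRP8 lie above the dotted lines, and the wild-type point is the highest of each gene on the authors' scale plotted, which does not hold for all after quantile normalization.

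On the authors' scale, all 10 genes had a lower RPKM than wild type in each of the 3 mutants, 30 of 30 values; after quantile normalization of the columns 7 were lower with set2 deleted, 7 in H3K36A and 5 with eaf3 deleted, where 47.4%, 49.8% and 47.0% of all 5326 genes were lower. A lower value in every mutant on the authors' scale was found for 67.0% of all 5326 genes. On that scale most genes were lower in each mutant: 77.3% of all genes with set2 deleted, 72.8% in H3K36A and 81.0% with eaf3 deleted. Ratios are given as log2((mutant + 1)/(wild type + 1)), which understates the difference of genes with low RPKM. For the set2, H3K36A and eaf3 mutants, in this order here and wherever 3 mutant values follow each other, the median log2 ratio of the 10 genes was -0.45, -0.85 and -0.61. After quantile normalization it was -0.14, -0.22 and -0.0082. The corresponding medians of all 5326 genes were -0.32, -0.44 and -0.48. Among the 3657 genes whose mean RPKM reached 10, called the genes compared, the median was -0.23, -0.32 and -0.36, and relative to that median gene the 10 had medians of -0.23, -0.53 and -0.26. In each mutant 8 of the 10 genes were below the median of all genes. With eaf3 deleted this count includes SNU114, which was nearly level with it, at -0.4825 against -0.4824. All 30 log2 ratios lay between the 10th and the 90th percentile of the genes compared. The 3 comparisons share the wild-type column.

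Of these 30 log2 ratios, 1 reached 2-fold. Counts were made among the genes compared, which admitted 5 of the 10: SUB2, PRP43, PRP8, SNU114 and BRR2. Of these 5, BRR2 was at least 2-fold lower in H3K36A, and none was in either deletion strain. Of all genes compared, 6.43%, 18.0% and 16.0% passed 2-fold on the lower side in the 3 mutants. None of the 5 was at least 2-fold higher in any mutant, against 1.26%, 3.91% and 1.53% of genes compared. PRP28, PRP16, PRP22, PRP5 and PRP2 had a mean below 10. PRP28 and PRP16 had more than 10 in wild type, so their lower values in the mutants decided their exclusion. With those 5 included, the counts were 0, 1 and 0 lower, against 11.4%, 23.5% and 22.9% of all 5326 genes, and 0 higher, against 1.07%, 3.15% and 1.18%. Relative to the median gene, BRR2 in H3K36A was at -0.83, and 0 of the 10 passed 2-fold. With a pseudocount of 5, after quantile normalization, or centred on genes of similar length or level, BRR2 did not pass either, and with a pseudocount of 0.1 both BRR2 and PRP22, the latter outside the genes compared, passed with eaf3 deleted. Relative to the median gene, 2.90%, 9.68% and 7.03% of genes compared were lower by 2-fold and 1.83%, 6.95% and 3.55% higher.

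**Figure D2:**
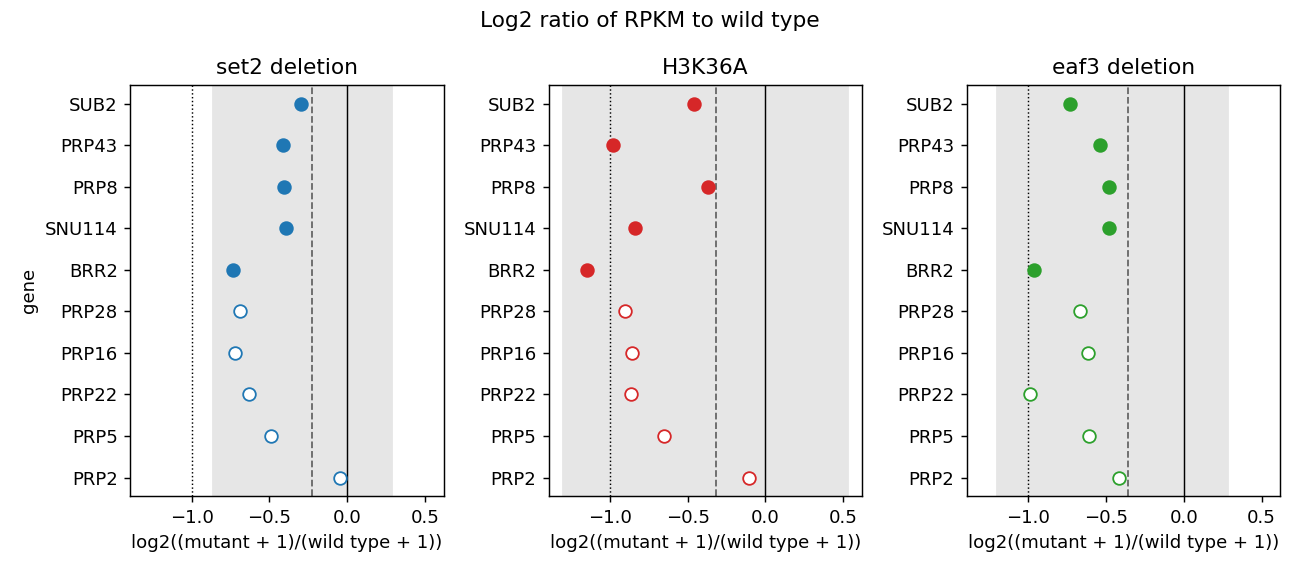
Log2 ratio of RPKM to wild type of the 10 genes in each mutant; filled points have a mean RPKM of at least 10, the dashed line is the median of the 3657 genes compared, the grey band runs from their 10th to their 90th percentile, and the dotted line marks 2-fold lower. On the authors' scale plotted all 30 points are left of 0, which quantile normalization alters for 3, 3 and 5 genes, and inside the grey band, and BRR2 in H3K36A lies beyond the dotted line.

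SUB2 and PRP5 act first, at branch-site recognition. SUB2 (YDL084W, chromosome IV 305237 to 306577, build sacCer3) encodes a DEAD-box protein that also serves mRNA export in the TREX complex. Its RPKM was 362 in wild type, 295 with set2 deleted, 263 in H3K36A and 217 with eaf3 deleted. The eaf3 value, at 60.1% of wild type, was the lowest, and the log2 ratios were -0.29, -0.46 and -0.73. PRP5 (YBR237W, chromosome II 691969 to 694518), a DEAD-box protein that remodels the U2 particle, was at 9.03 RPKM in wild type and 6.14, 5.39 and 5.56 in the mutants. The 3 mutants lay close together there, from 59.7% to 68.1% of wild type. After quantile normalization PRP5 lay above wild type in all 3, at log2 ratios of 0.066, 0.065 and 0.18. Before it, the SUB2 level was 40.1 times the PRP5 level in wild type and between 39.0 and 48.7 times in the mutants. With quantile normalization it was 57.8 times in wild type and 44.9, 39.5 and 32.0 times in the mutants.

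BRR2, PRP8 and SNU114 encode the large proteins of the U5 particle. PRP8 and SNU114 had similar values in the deletion strains: 75.0% of wild type each with set2 deleted, 70.9% and 70.2% with eaf3 deleted. BRR2 was at 58.1% and 48.7% there, and without replicates the difference was not tested. BRR2 (YER172C, chromosome V 529530 to 536021) is the Ski2-like helicase that unwinds U4 from U6. It was at 19.6 RPKM in wild type and 11.4, 8.31 and 9.56 in the mutants. H3K36A was the lowest and, 2.36-fold below wild type, had the largest fold difference among the 10 genes in any mutant on the authors' scale. After quantile normalization the H3K36A log2 ratio of BRR2 was -0.58, and that of PRP43 was lower, at -0.83. PRP43 was also the lower there with a pseudocount of 5 and when centred on the quartile of mean RPKM. PRP8 (YHR165C, chromosome VIII 429707 to 436948), the scaffold around the catalytic core, was at 37.5 RPKM in wild type and 28.1, 28.8 and 26.6 in the mutants. On the log2 scale H3K36A was at -0.37, and at -0.05 relative to the median gene, but it lay above wild type after quantile normalization. Its mutants differed by 1.09-fold from highest to lowest, the smallest such spread of the 10. SNU114 (YKL173W, chromosome XI 122517 to 125543), a GTPase related to elongation factor eEF2, was at 21.0 RPKM in wild type and 15.7, 11.3 and 14.7 in the mutants. Its lowest value was in H3K36A, at 53.8% of wild type, against 75.0% and 70.2% in the deletion strains. After quantile normalization SNU114 lay above wild type in both deletion strains, at log2 ratios of 0.0059 and 0.089.

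A ratio of levels within one genotype does not depend on a single scale factor for that genotype, which quantile normalization is not. The level of PRP8 was 1.91 times that of BRR2 in wild type and 2.46, 3.47 and 2.78 times in the mutants; after quantile normalization it was 2.05 times in wild type and 2.45, 3.22 and 2.59 times in the mutants. On the authors' scale PRP8 was 1.79 times SNU114 both in wild type and with set2 deleted, 1.80 times in the eaf3 deletion and 2.55 times in H3K36A. After quantile normalization PRP8 was 1.89 times SNU114 in wild type and 1.79, 2.41 and 1.73 times in the mutants. From the lowest to the highest of the 3 genes, the log2 ratios to wild type on the authors' scale spanned 0.34, 0.78 and 0.49.

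PRP28 (YDR243C, chromosome IV 948518 to 950284), the DEAD-box protein that displaces U1 from the 5′ splice site, had 13.8 RPKM in wild type and 8.17, 6.89 and 8.28 in the mutants. The mutant values were 59.4%, 50.1% and 60.2% of wild type. H3K36A was the lowest, just short of 2-fold. After quantile normalization the eaf3 value lay above wild type, at a log2 ratio of 0.016.

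The log2 ratios of the 4 DEAH-box ATPases of the catalytic and release steps spanned 0.67, 0.88 and 0.57 on the authors' scale. These are ranges of single values that were not tested, and PRP2, PRP16 and PRP22 are under the minimum mean of 10. PRP2 (YNR011C, chromosome XIV 644320 to 646950), which acts before the first splicing reaction, was at 7.45 RPKM in wild type and 7.19, 6.86 and 5.34 in the mutants. Its values in the set2 deletion and H3K36A were 96.5% and 92.0% of wild type, the highest of the 10 in both, and above the median gene by 0.18 and 0.21 on the log2 scale. After quantile normalization PRP2 lay above wild type in all 3 mutants, at log2 ratios of 0.54, 0.64 and 0.43. PRP16 (YKR086W, chromosome XI 599857 to 603072), which acts before the second reaction, was at 11.2 RPKM in wild type and 6.41, 5.71 and 6.95 in the mutants. Its lowest value was in H3K36A, at 51.1% of wild type. After quantile normalization its eaf3 value lay above wild type, at a log2 ratio of 0.12. On the authors' scale the PRP16 level was 1.50 times that of PRP2 in wild type and 1.30 times in the eaf3 deletion, but 0.891 times in the set2 deletion and 0.833 times in H3K36A, and after quantile normalization it was again above PRP2 in the first pair and below it in the second.

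PRP22 (YER013W, chromosome V 178841 to 182278), which releases the spliced mRNA, was at 9.19 RPKM in wild type and 5.57, 4.59 and 4.14 in the mutants. The eaf3 value was 2.22-fold lower than wild type as a plain ratio. With 1 added to both values its log2 ratio was -0.99, short of 2-fold, and its mean was under the minimum of 10 in any case. BRR2 in the eaf3 deletion was likewise 2.05-fold lower as a plain ratio and -0.97 on the log2 scale used.

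PRP43 (YGL120C, chromosome VII 281634 to 283937) encodes the ATPase that dismantles spliceosomes and also acts in ribosome assembly. It was at 136 RPKM in wild type and 102, 68.3 and 93.3 in the mutants. H3K36A was the lowest at 50.3% of wild type, against 74.9% and 68.7% in the deletion strains. Its mutants spanned 1.49-fold, the widest of the 10. Between H3K36A and the set2 deletion its log2 ratio was -0.57, lower than in all but 10.7% of genes compared. Between the eaf3 deletion and H3K36A it was 0.44, higher than in 94.0% of them. SNU114 went the same way, at -0.44 and 0.36, as did BRR2, PRP28, PRP16 and PRP5 by smaller amounts. So did all 17 listed helicases of ribosome assembly, described below, with medians of -0.68 and 0.33. In all of these genes H3K36A had the lowest value of the genotypes, which held for 36.8% of all listed genes.

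None of the 10 genes passed 2-fold between any pair of mutants. The share of genes compared that was at least 2-fold higher or lower was 2.32% and 1.31% for H3K36A against the set2 deletion. It was 0.383% and 1.31% for the eaf3 deletion against the set2 deletion, and 0.793% and 3.04% for the eaf3 deletion against H3K36A. The lowest of the 4 values was in H3K36A for 6 genes (PRP5, PRP16, PRP28, PRP43, BRR2 and SNU114) and in the eaf3 deletion for 4 (PRP2, PRP22, SUB2 and PRP8). Over all listed genes those shares were 36.8% and 40.4%.

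Gene length moved with the ratio in these data. From the shortest to the longest quartile of genes compared, the median log2 ratio was -0.10 against -0.34 with set2 deleted, -0.20 against -0.49 in H3K36A and -0.34 against -0.42 with eaf3 deleted. Of the 10 genes, 8 fell in the longest quartile (1.86 kb and above) and 2, SUB2 and PRP28, in the next. Against the median of its own length quartile, BRR2 was at -0.39, -0.66 and -0.54. On the same measure PRP43 was at -0.07, -0.49 and -0.12, and PRP8 at -0.06, 0.12 and -0.06. PRP8 and BRR2 were the longest of the 10, at 7.24 and 6.49 kb. They also differed in level, at 37.5 and 19.6 RPKM in wild type, and their ratios were not tested against each other. The level moved with the ratio too: by wild-type RPKM of all listed genes, the quartile medians in H3K36A were -0.46, -0.63, -0.46 and -0.21 from lowest to highest. Against its own quartile, PRP43 in H3K36A was at -0.77, BRR2 at -0.52 and PRP8 at 0.09. Wild-type RPKM is also the denominator of the ratio. Small RNA genes (names starting with snR, SCR1, RPR1 and NME1) held 22.7% of the RPKM sum in wild type and 27.1%, 29.9% and 28.2% in the mutants. The part of length, level and small RNA share in the results was not tested.

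**Figure D3:**
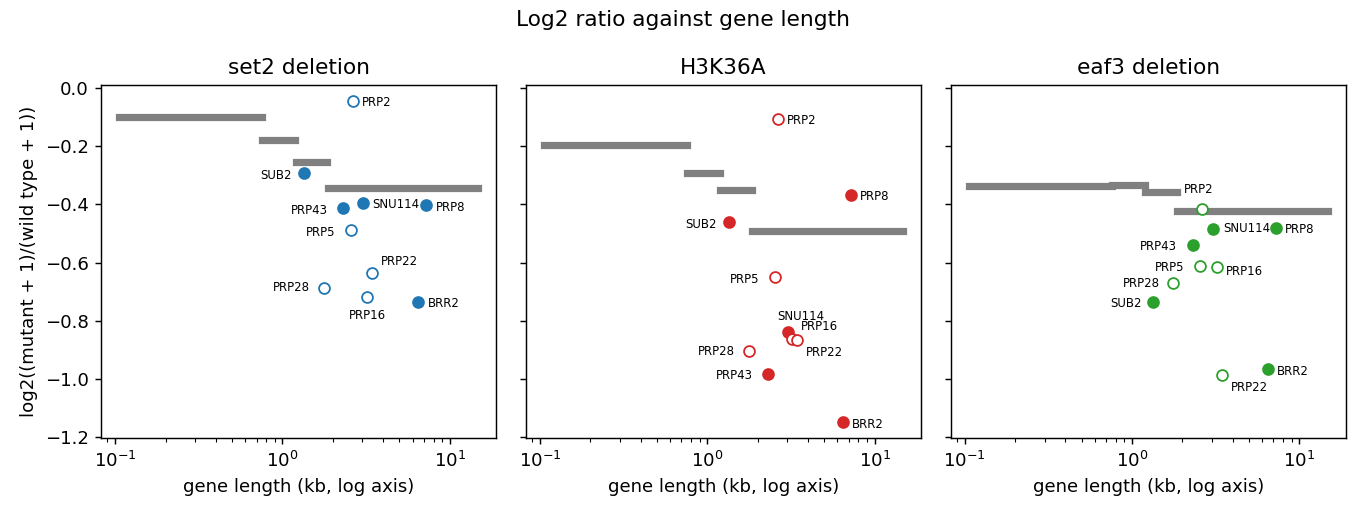
Log2 ratio of RPKM to wild type against gene length (kb, log axis) for the 10 genes in each mutant; grey bars are the medians of the 4 length quartiles of genes compared, drawn over each quartile's range of length, and filled points have a mean RPKM of at least 10. PRP8 and BRR2, the longest genes, lie at -0.37 and -1.15 in H3K36A. They also differ in level, and the part of length was not tested.

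Genes that work with these ATPases mostly had low RPKM. Of 11 listed cofactors and regulators of the helicases, 10 had a row, and 1 of them, CWC25, a factor of the first splicing reaction, had a mean of at least 10. CWC25 was at 20.8 RPKM in wild type and 15.5, 11.6 and 15.3 in the mutants. Over the 10 with a row, the median log2 ratio was -0.71, -1.10 and -1.07, and 2, 7 and 6 of them were at least 2-fold lower (0, 4 and 1 relative to the median gene). Beside these counts and those of the lists that follow, 11.4%, 23.5% and 22.9% of all 5326 genes were at least 2-fold lower on the authors' scale. Relative to the median gene the share was taken only over the genes compared, at 2.90%, 9.68% and 7.03%. Most genes of these lists are not among the genes compared, so those shares are no close match. On the authors' scale all 10 cofactors and regulators were below wild type in each mutant, as were 67.0% of all 5326 genes. The lists are not given after quantile normalization, which moved the medians of the 10 spliceosomal genes. Of 11 other U5 and tri-snRNP proteins, 8 had a row and 3 of these passed the minimum. Over the 8, the median log2 ratios were -0.68, -0.98 and -1.03, with 2, 4 and 5 at least 2-fold lower. When centred on the median gene, 2, 2 and 2 passed, SNU66 and SPP381 each time, both under the minimum. Of the 3 that passed the minimum, PRP6, a tri-snRNP bridging protein, passed 2-fold with eaf3 deleted (8.16 against 17.6 RPKM), but was at -0.67 relative to the median gene, short of 2-fold. Of 6 THO-TREX partners of SUB2, 5 had a row and 2 passed the minimum. THO2, the large THO subunit, was at least 2-fold lower in H3K36A (8.50 against 20.2 RPKM), but at -0.84 relative to the median gene, short of 2-fold. Over the 5 with a row, 2, 3 and 1 were at least 2-fold lower, with medians of -0.79, -1.16 and -0.82. When centred on the median gene, 0, 2 and 1 passed: HPR1 and TEX1 in H3K36A and HPR1 with eaf3 deleted, both under the minimum. None of these 3 lists had a member at least 2-fold higher, against 1.07%, 3.15% and 1.18% of all 5326 genes.

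Helicases of ribosome assembly, most of them of the same DEAD-box and DEAH-box families, had lower median ratios than the 10 spliceosomal genes in each mutant. All 17 listed had a row and 16 had a mean of at least 10. Of these 16, 8, 15 and 10 were at least 2-fold lower, against 6.43%, 18.0% and 16.0% of genes compared. Their median log2 ratios were -1.01, -1.63 and -1.23. Relative to the median gene the counts were 3, 12 and 6, against 2.90%, 9.68% and 7.03% of genes compared. The lowest ratio was that of DBP9, of the large ribosomal subunit pathway, at 6.53 RPKM in H3K36A against 50.0 in wild type. ROK1, of the small subunit pathway, was at 4.12 against 25.9 RPKM, and HCA4, also of the small subunit pathway, at 7.76 against 43.4 RPKM. None of the 10 spliceosomal genes had a log2 ratio below the median of all 17 in any mutant. PRP43, which serves both pathways, had a higher log2 ratio than 16, 16 and 17 of the 17.

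**Figure D4:**
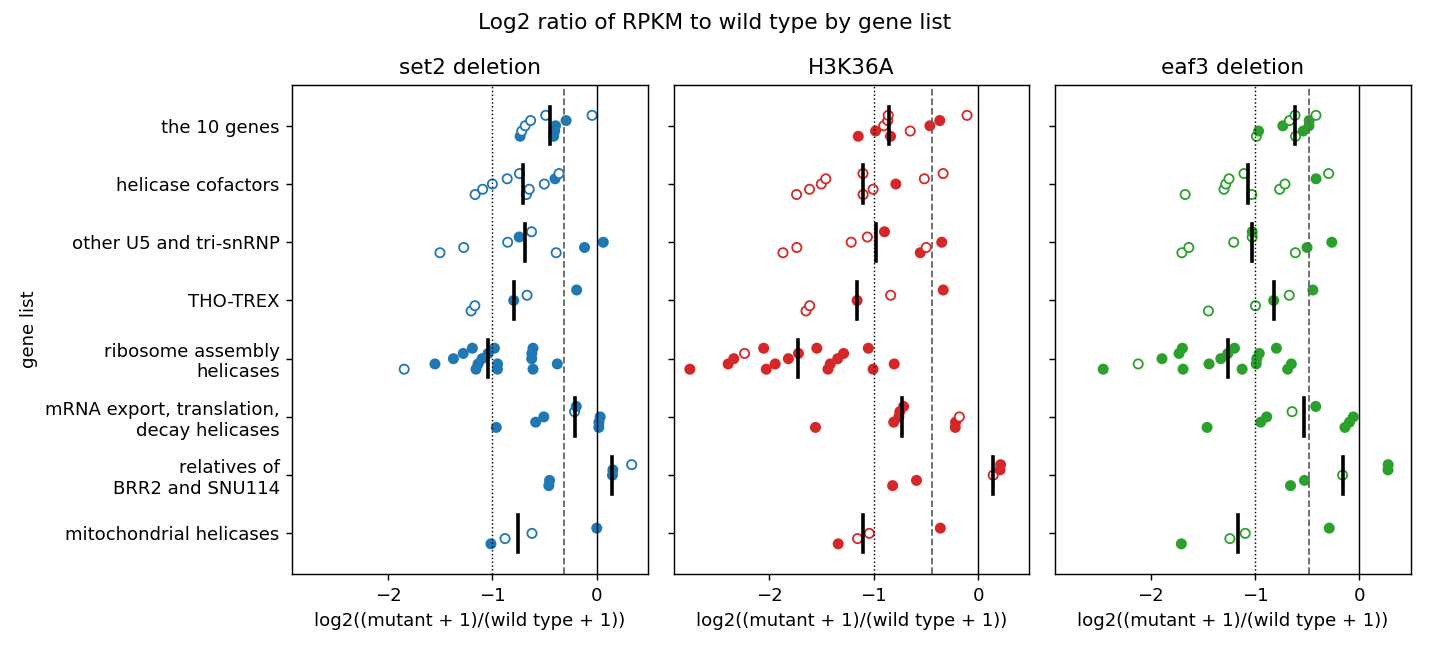
Log2 ratio of RPKM to wild type for each gene list in the 3 mutants; points are genes (filled where the mean RPKM is at least 10), thick bars are list medians over genes with a row, the dashed line is the median of all 5326 genes and the dotted line marks 2-fold lower. The ribosome assembly helicases have the lowest median in each mutant, at -1.04, -1.72 and -1.26, and the 10 spliceosomal genes have -0.45, -0.85 and -0.61.

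BRR2 had the largest mean departure from the median gene of the 10, -0.65 on the log2 scale over the 3 mutants. The genes most like it, by Euclidean distance over the 3 log2 ratios relative to the median gene among all 5326 genes, were DPB3, MSN2 and ABF1, at 0.033, 0.036 and 0.036. MSN2, for example, was at 20.7 RPKM in wild type and 12.1, 8.71 and 9.83 in the mutants. None of the 10 genes overlaps another gene in the annotation used, and none shares all its values with another row.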

How the data were processed

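The authors deposited 1 table of RPKM with 4 value columns, each the average of a genotype per the file headers. For the RNA libraries, CASAVA, TopHat2 2.0.14 and sacCer3 are named, per the submitters' processing notes. Total RNA without rRNA went into a stranded library kit, per the labels' protocols. For the RPKM tool, the gene models and the use of strand, the method is not stated in those sources. No value in the table is below 1, so genes under that RPKM in any genotype have no row. RPKM is relative: more reads on a few abundant RNAs lower all others. Of 5328 rows, 2 named R were left out, and 3 further lines had been emptied for this work. Names, lengths and coordinates were taken from a RefSeq table for R64, the assembly behind sacCer3, with a length for 5176 genes.

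A planned limma test needed a column per library. The fallback written beside it was used: log2 ratios with a pseudocount of 1, 2-fold counts where the mean over genotypes reached 10, and no test. The calculation was checked on simulated data. The genes and lists were chosen with earlier results of these data known. Named were all 10 genes; up to 3 genes beyond 2-fold per other list with the largest ratios among those with a mean of at least 10, or otherwise its highest and lowest mean ratio; and the 3 genes nearest to the most departing of the 10. Alternatives were pseudocounts of 0.1 and 5, a minimum mean of 1, centring on the median gene, on the length quartile or on the quartile of mean RPKM, quantile normalization, and leaving out small RNA genes before rescaling. Python 3.11.15 with pandas 2.3.3 was used. No sequences of these genes were used here.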

Additional observations from a re-analysis of the deposited data

How the results depend on the processing

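No paired analysis was possible because the deposited columns are genotype means and carry no replicate numbers; leaving out replicates was not run for the same reason. The 1 gene at least 2-fold lower in H3K36A, BRR2, became 0 with a pseudocount of 5, with centring on the median gene, on the length quartile or on the quartile of mean RPKM, and with quantile normalization. In the eaf3 deletion the count went from 0 to 1 (BRR2) with a pseudocount of 0.1, and PRP22, outside the genes compared, passed there too. The other 90 counts under an alternative were within 1.5 times the original, but most of them were 0 both times. The 24 medians cover the members that pass the minimum: 5 genes, or all 10 with a mean RPKM of at least 1. On the authors' scale the 5 were at -0.40, -0.84 and -0.54. All 24 moved by less than 1.5-fold, a limit wide enough for the set2 and eaf3 medians to reach 0 within it. Centred on the length quartile the medians of the 5 were -0.06, -0.35 and -0.12. Centred on the median gene they were -0.18, -0.52 and -0.18. Over all 10 genes, quantile normalization took the medians from -0.45, -0.85 and -0.61 to -0.14, -0.22 and -0.0082, over 1.5-fold in H3K36A and the eaf3 deletion. Quantile normalization lowered the wild-type level of PRP2 from 7.45 to 4.87 RPKM, and the other 79 levels moved by less than 1.5-fold. The lower values in the mutants depended on the scale. After quantile normalization 7 of the 10 genes were below wild type with set2 deleted, 7 in H3K36A and 5 with eaf3 deleted. When centred on the median gene, 9, 9 and 10 were below that gene, which is not the same as below wild type. PRP43, PRP22, SUB2 and BRR2 had negative log2 ratios under all 8 alternatives in all 3 mutants. In the 3 centred ones this means below the reference median, and a minimum mean of 1 leaves the ratio of a single gene unchanged. The share of all genes that stayed negative in this way was not counted. Some of the values were near 0. With set2 deleted, PRP22 was at -0.08 after quantile normalization and SUB2 at -0.04 centred on the length quartile. Of 210 log2 ratios of single genes under an alternative, 19 moved by more than 1.5-fold, 12 of them under quantile normalization and 7 under centring on the quartile of mean RPKM, and the cause was not tested. Depth limits the low genes most, and its size is unknown.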

Other observations

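Other relatives of these ATPases differed from each other. Among 7 helicases of mRNA export, translation and decay with a mean RPKM of at least 10, DBP5, which remodels mRNA at the nuclear pore, was at 79.5 RPKM in wild type against 40.3, 26.3 and 28.3 in the set2, H3K36A and eaf3 mutants. It passed 2-fold on the lower side in H3K36A and with eaf3 deleted, and was the 1 of the 7 that passed 2-fold. Of genes compared, 18.0% and 16.0% passed on the lower side in these 2 mutants. The median log2 ratio of the 7 was -0.20, -0.75 and -0.42. Among the relatives of BRR2 and SNU114, none of 4 with such a mean passed 2-fold, and their medians were -0.15, -0.19 and -0.13. Over all 5 listed the medians were 0.15, 0.15 and -0.16, so the sign with set2 deleted and in H3K36A depended on the minimum; EFT1 and EFT2 were higher and SLH1 and RIA1 lower than wild type in each mutant. The highest mean log2 ratio was that of EFT1, which encodes eEF2 and can share reads with its near-identical copy EFT2, at 6289, 6999, 7305 and 7605 RPKM in wild type and the mutants in the same order. The lowest was that of SLH1, the cytoplasmic relative of BRR2, at 16.8, 11.9, 9.09 and 10.3 RPKM. Of the mitochondrial helicases, MSS116, which assists the splicing of mitochondrial introns, was at 38.6 RPKM in wild type and 18.6, 14.7 and 11.2 in the mutants, at least 2-fold lower in each. Over all 4 mitochondrial helicases, 2 of them under a mean of 10, the medians were -0.75, -1.10 and -1.17, with 1, 3 and 3 at least 2-fold lower. These counts were 0, 1 and 1 relative to the median gene. Of all 5326 genes, 11.4%, 23.5% and 22.9% were at least 2-fold lower on the authors' scale. Relative to the median gene, 2.90%, 9.68% and 7.03% of the genes compared were.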
